A study of Mus musculus with 68 samples.

Results

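The endothelin genes were read in single cells of the developing mouse cerebral cortex. The members were the receptors Ednra and Ednrb, the ligands Edn1 and Edn3, and the converting enzymes Ece1 and Ece2. They were taken as every probe set that the array annotation maps to a listed gene, which gave 13 of the 45101 probe sets on the array and covered 5 of the 6 genes. Ednra was not analysed here. The set was picked with earlier results of these cells in view, where Ednrb stood among genes that separated early from late progenitors, so the Ednrb levels by stage are given as a description with no test.

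Endothelins are short peptides cut from longer precursors. The converting enzymes Ece1 and Ece2 make the last cut, and the mature peptides act on G protein-coupled receptors in the membrane of nearby cells. Ednrb binds the ligands with like affinity and is known from the migration of neural crest cells and, in the brain, from astroglia, whereas Ednra, which prefers endothelins other than Edn3, is known from blood vessels and the facial skeleton. In the cerebral cortex, apical progenitors (APs) line the ventricle and renew themselves, and they give rise to intermediate progenitors (IPs) and neurons.

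Amplified cDNA from each of 68 cells of CD1 mice was hybridized to 1 array. By the labels, 30 cells came from the cerebral wall at embryonic day 11 (E11), 28 from E16, and 3 were APs of E12. Another 3 were APs of neurospheres grown from E11 cells for 3 days in vitro with FGF2 and EGF. The last 4 were APs of the E14 cerebral wall that overexpressed the intracellular domain of Notch1 (NICD) and the Cdk inhibitor p18 (Cdkn2c). Their plasmids, driven by promoters active in most cells, had been electroporated in utero 3 days before, at E11. No E14 control cells accompanied the last group here, so age and plasmids cannot be told apart in it. No embryo or litter is given for a cell in the labels, so each group counted as 1 sample, spreads are between cells and no p-value was computed. The cDNAs had been selected by marker genes before hybridization.

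The labels do not divide the E11 and E16 cells into types. They were clustered here on fixed AP, IP and neuron markers, none of them an endothelin gene. At E11 this gave 24 AP-like, 3 IP-like and 3 neuron-like cells, and at E16 17 AP-like, 10 IP-like and 1 neuron-like cell. One AP-like E11 cell of low quality, 31i, was left out, which left 23. The AP marker Ttyh1 and the IP marker Eomes were among the clustering markers, so their counts describe the classes and do not check them. Ttyh1 was at or over the 20-copy signal in 17 of the 23 E11 and 15 of the 17 E16 AP-like cells. Eomes was at or over it in 0 and 1 of them. In the cells labelled as APs, Ttyh1 reached it in 3 of 3 at E12, 2 of 3 from neurospheres and 4 of 4 with NICD/p18, and Eomes in 1, 0 and 0. The 3 E11 IP-like cells all reached it for Eomes, and so did 2 of the 3 E11 neuron-like cells. The neuron-like name at E11 is therefore provisional. Of the 10 E16 IP-like cells, 8 reached it for Eomes. The other 2, which formed a cluster of their own, had no IP marker among their 10 leading genes. The 20-copy signal was the median signal of a bacterial control RNA added at 20 copies per cell, 842 after normalization, or 9.72 on the log2 scale. On single arrays this control ran from 13.1 to 6636, so the median is not the 20-copy level of each cell. Signals under the 20-copy signal have little meaning as levels. Values below are log2 of quantile-normalized signals unless said otherwise.

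Of the 13 probe sets, 3 reached the 20-copy signal in any cell. They were 1437347_at of Ednrb in 24 of 68 cells, 1423358_at of Ece2 in 14 and 1455741_a_at of Ece1 in 2. The other 10 reached it in none. Over the whole array 20721 probe sets did so in at least 1 cell.

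Before the values, the sequences upstream of Ednrb and Ece2 are shown, since these are the members that many cells held. Each runs 5′ to 3′ over the 250 bases before the start in the RefSeq promoter table (GRCm38.p6), and capitals mark CpG dinucleotides. Ednrb lies at chr14:103814615-103844508 and its stretch at chr14:103843702-103843951 on the minus strand. Ece2 lies at chr16:20629851-20645915 and its stretch at chr16:20629601-20629850 on the plus strand.
Ednrb: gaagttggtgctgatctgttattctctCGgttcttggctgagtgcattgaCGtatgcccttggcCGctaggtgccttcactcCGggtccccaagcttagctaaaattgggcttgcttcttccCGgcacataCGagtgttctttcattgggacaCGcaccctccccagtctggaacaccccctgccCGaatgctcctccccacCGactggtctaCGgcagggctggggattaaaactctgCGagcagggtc
Ece2: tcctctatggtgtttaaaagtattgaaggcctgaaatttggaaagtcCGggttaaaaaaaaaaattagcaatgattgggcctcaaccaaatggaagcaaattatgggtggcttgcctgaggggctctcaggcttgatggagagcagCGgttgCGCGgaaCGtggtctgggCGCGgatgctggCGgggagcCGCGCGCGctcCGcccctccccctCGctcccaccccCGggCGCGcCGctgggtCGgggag
The Ednrb stretch held 11 CpGs and the Ece2 stretch 19, against a median of 6 over 32851 promoters. The Ednrb start used in the table lies 807 bases inside the outermost start of the gene, so the stretch can overlap a longer transcript. The core letters TGGGAA of the motif of RBPJ, the DNA-binding partner of NICD, were searched on both strands in the table's full windows of 300 bases. They were in neither window and were in 25.6% of all promoters, which says only that these letters are not in these windows.

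In the AP-like cells Ednrb was near the lowest signals at E11 and over the 20-copy signal in most cells at E16. At E11 the lowest of the 23 cells was at -1.22, the median at 1.25 and the highest, cell 37M, at 10.49. At E16 the lowest of the 17 cells, 78G, was at 0.01, the median at 10.83 and the highest, 81L, at 12.51. Cell 37M was the 1 E11 cell over the 20-copy signal, and 78G was the 1 E16 AP-like cell at the level of the other E11 cells, so the groups overlapped through these 2 cells. The other 2 E16 cells under the 20-copy signal, 75H and 81i, were at 8.22 and 8.87, above all E11 cells but 37M.

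The Ednrb mean was 1.72 ± 2.67 (SD, n = 23) in E11 and 10.22 ± 2.90 (SD, n = 17) in E16 AP-like cells, a difference of 8.50. Because most E11 signals lay far under the 20-copy signal, the size of this difference is not a fold change of transcripts. With every signal raised to at least the 20-copy signal it was 1.18. The share of cells at or over the 20-copy signal was 4.35% at E11 (1 of 23, exact 95% binomial interval 0.11 to 21.9%) and 82.4% at E16 (14 of 17, 56.6 to 96.2%). These intervals cover counting error only. With 2 times the 20-copy signal as the limit the counts were 0 of 23 and 9 of 17, and the Ednrb call below was lost. Against each array's own control they were 1 and 12, and in the signals as deposited 1 and 11. In this contrast 0.864% of the 20721 probe sets were at least 2 higher on the log2 scale with a mean over the 20-copy signal at E16, and 1 of the 3 members that could pass, Ednrb, was among them. The choice of the genes rests on this contrast, so nothing is read from that count.

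**Figure D1:**
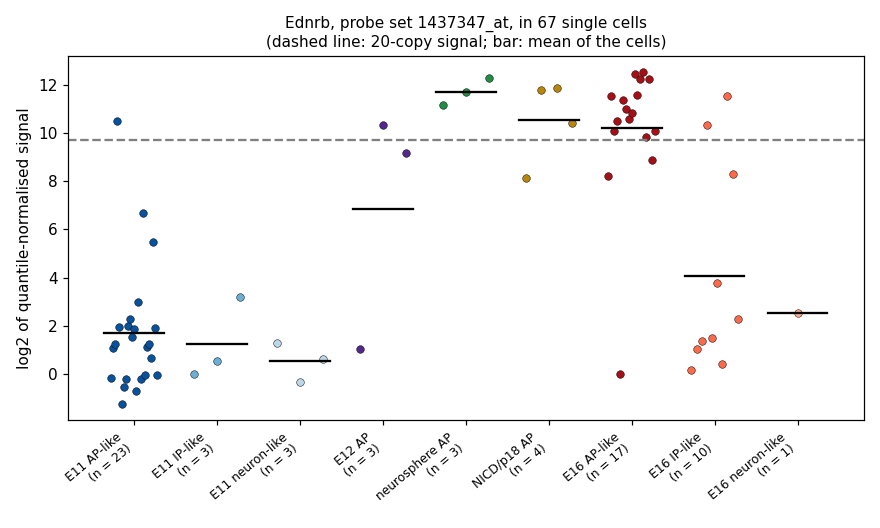
Ednrb level in single cells. The vertical axis is log2 of the quantile-normalized signal of probe set 1437347_at, points are cells, bars are means and the dashed line is the 20-copy signal. Most E16 AP-like, NICD/p18 and all 3 neurosphere cells lie over the line, and 1 of 23 E11 AP-like cells does.

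Taken by label, without the division into types, Ednrb had a mean of 1.55 ± 2.45 (SD, n = 29) at E11 and 7.75 ± 4.59 (SD, n = 28) at E16, a difference of 6.20. It was at or over the 20-copy signal in 1 of 29 and 16 of 28 cells (3.45% and 57.1%). The E16 mean lay under that signal, so Ednrb was not among the 0.458% of probe sets that passed as higher in this contrast. The E16 cells were spread over the full range, from 0.01 to 12.51 with a median of 10.08.

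Within E16, Ednrb was lower in IP-like than in AP-like cells. The lowest of the 10 IP-like cells was at 0.16, the median at 1.91 and the highest, 81O, at 11.53. Cells 81O and 75A, at 10.31, were over the 20-copy signal, 82H was at 8.29, and the other 7 were at 3.77 or lower. The groups overlapped, with 3 IP-like cells inside the range of the AP-like cells other than 78G. The mean was 4.07 ± 4.31 (SD, n = 10), and the difference from the AP-like cells was -6.15. The share over the 20-copy signal was 20.0% (2 of 10, interval 2.52 to 55.6%) against 82.4%. In the same contrast 1.19% of probe sets passed as lower in the IP-like cells, Ednrb among them. The E16 neuron-like cell, 80K, was at 2.55.

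Cell names begin with a number that the labels do not explain. No number was shared by E11 and E16 cells, so stage and number cannot be told apart. At E16, 4 numbers held both AP-like and IP-like cells. The IP-like minus AP-like difference in Ednrb was -2.31 for number 75, -9.42 for 76, -4.78 for 82 and 0.33 for 81, where the IP-like cells were the single cell 81O. The IP-like mean was therefore lower within 3 of 4 numbers. These means rest on 1 or 2 cells each, apart from the AP-like cells of 81. In numbers 76 and 82 the AP-like cell was over the 20-copy signal and the IP-like cells were not. In number 75 the AP-like cell was under it, at 8.22. Of the IP-like cells there, 75A was over it, at 10.31, and 75O was at 1.52. Number 81 held 10 of the 17 E16 AP-like cells, 9 of them over it. The contrast of types at E16 is therefore partly tied to this number.

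At E11 the IP-like and neuron-like cells gave low Ednrb signals. The 3 IP-like cells were at 0.03, 0.54 and 3.20. The 3 neuron-like cells were at -0.30, 0.64 and 1.30. All 6 lay within the range of the AP-like cells of that stage.

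The 3 APs of E12 differed from each other in Ednrb, at 1.04, 9.19 and 10.33. The cell at 10.33, 105M, was over the 20-copy signal, that at 9.19 was close under it, and 103L was at the level of E11 cells. Their mean of 6.85 ± 5.07 (SD, n = 3) was 5.13 above that of the E11 AP-like cells, and leaving out each cell in turn gave 3.39 to 8.03. The mean stayed under the 20-copy signal, so Ednrb was not among the 2.62% of probe sets that passed as higher. The 10 arrays outside the E11 and E16 groups had been scaled to 1 common mean of 500.0 before deposit, whereas the means of the E11 and E16 arrays ran from 47.5 to 298. Processing and condition cannot be told apart in comparisons across these arrays.

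The neurosphere APs had Ednrb at 11.16, 11.68 and 12.26, all over the 20-copy signal and over every E11 cell. Their mean of 11.70 ± 0.55 (SD, n = 3) was 9.97 above that of the E11 AP-like cells. Of all probe sets, 2.84% passed as higher in this contrast, with Ednrb as the 1 member. Of the 3 fixed oligodendrocyte precursor markers, 2 were over the 20-copy signal in at least 1 neurosphere cell, Olig1 in 3 of 3 cells, with a mean of 13.22 against 2.19, and Olig2 in 2 of 3, with 11.10 against 0.78. The summed signal of the list was 6956 to 23630 against 6.93 to 53.4 in E11 AP-like cells. The defining marker Pdgfra was under the 20-copy signal in all 3. Of the 5 neural crest and melanoblast genes 1 reached it, Sox10, in 1 of 3 cells, with a mean of 7.84 against 5.00 at E11. The part of these cells' makeup in the Ednrb level was not tested.

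The NICD/p18 APs had Ednrb at 8.15, 10.40, 11.79 and 11.85, with all but the lowest, M5A, over the 20-copy signal. Their mean of 10.55 ± 1.73 (SD, n = 4) was 8.82 above that of the E11 AP-like cells, and the one E11 cell at this height was 37M. Of all probe sets, 3.00% passed as higher, and Ednrb was the 1 member. The control RNA added at 20 copies had a median signal of 3308 on these 4 arrays against 701 in the E11 AP-like cells, and against each array's own control 2 of the 4 cells were over and the Ednrb mean did not pass. The electroporated gene Cdkn2c was under the 20-copy signal in all 4, with a mean of 7.42 against 7.45 in E11 AP-like cells, and Notch1 was over it in 2 of 4. Whether the probes read the plasmids' transcripts was not determined. All 4 cells are APs by their labels, but by overall expression the study placed 2 of them near the IPs of E14. Which 2 these were was not determined. The proliferation marker Mki67 was over the 20-copy signal in 0 of 4 cells, against 19 of 23 at E11. The summed signal of the 5 mural genes was 141 to 3309 against 60.8 to 778 at E11. Of them 1 passed as higher, Pdgfrb, with a mean of 9.83 against 2.05 and 3 of the 4 cells over the 20-copy signal, and the other 4 were under it in all 4 cells. The summed signal of the 5 neural crest and melanoblast genes was 72.7 to 8275 against 63.2 to 4868 at E11. Of these 1 was over the 20-copy signal, Dct, in 2 of 4 cells, with a mean of 7.85 against 6.82, while Sox10 and Mitf were under it in all 4. Kit, which is not on that list, was over it in 1 of 4. The part of these markers in the Ednrb level was not tested.

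By mean Ednrb, the order from high to low was neurosphere APs (11.70), NICD/p18 APs (10.55), E16 AP-like (10.22), E12 APs (6.85), E16 IP-like (4.07), E16 neuron-like (2.55), E11 AP-like (1.72), E11 IP-like (1.26) and E11 neuron-like cells (0.55). No neighbours in this order differed by more than the larger SD of the 2 classes. The cells of each pair overlapped or, for the single neuron-like cell of E16, lay within the range of the other class. Sorting by mean keeps such gaps small, so no gradient is read from this. The neurosphere, NICD/p18 and E12 arrays had been scaled otherwise, so processing and condition cannot be told apart in their places.

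The 3 Ednrb probe sets differed in level. Probe set 1426314_at never reached the 20-copy signal, with a highest value of 8.87, nor did 1423594_a_at, with a highest value of 8.02. In AP-like cells 1426314_at had means of 3.94 ± 0.95 (SD, n = 23) at E11 and 5.87 ± 1.49 (SD, n = 17) at E16, and 10 of the 17 E16 cells lay above every E11 cell. Its neurosphere cells were at 5.94, 7.16 and 8.15, all above every E11 AP-like cell, whose highest was 5.20. Its NICD/p18 cells were at 4.95, 5.51, 7.89 and 7.99, of which 3 were. Probe set 1423594_a_at had means of 3.57 ± 0.80 (SD, n = 23) and 4.77 ± 1.31 (SD, n = 17) in the E11 and E16 AP-like cells, and its neurosphere mean of 4.01 was 0.44 above E11. Over the 57 E11 and E16 cells the Pearson correlation with 1437347_at was 0.55 for 1426314_at and 0.24 for 1423594_a_at (Spearman 0.43 and 0.23). The pooled values did not hold within each group. In the same order the Pearson values were -0.01 and -0.25 over the 29 E11 cells and 0.47 and 0.29 over the 28 E16 cells. Within the 17 E16 AP-like cells they were 0.35 and -0.37. All 3 directions were the same between stages in AP-like cells, but only 1437347_at reached the 20-copy signal. Against the control of the same array, 1426314_at in W6D and 1423594_a_at in 81C were among the signals that lay higher. The control was very low on these arrays, at 13.1 in W6D and 93.5 in 81C on the linear scale. The probe set signals were 143 and 120, far under the 20-copy signal of 842, so they are not read as detection. Where on the transcript each probe set lies was not determined, and the amplification favoured 3′ ends.

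**Figure D2:**
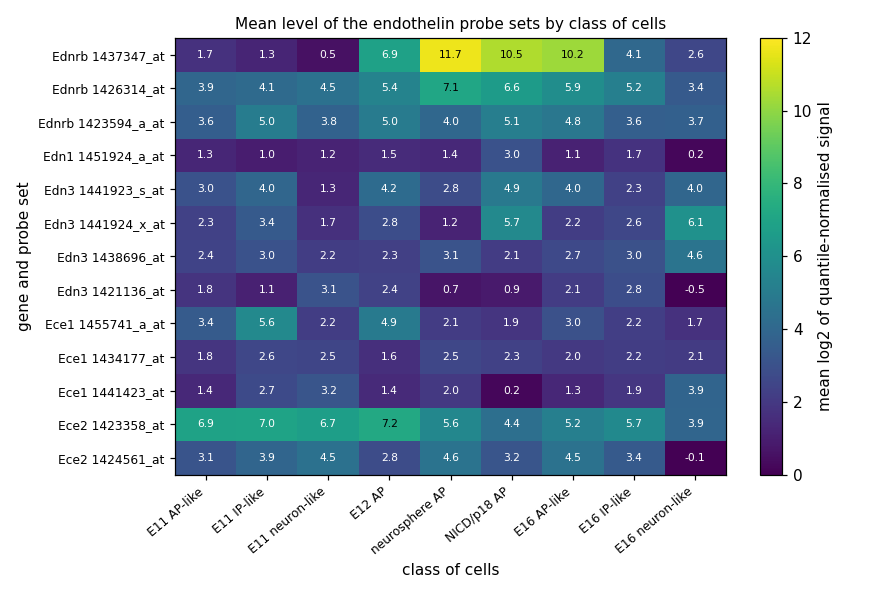
Mean level of the 13 endothelin probe sets in each class of cells. Rows are probe sets with their gene, columns are classes, and colour and printed value are the mean log2 of the quantile-normalized signal. Probe set 1437347_at of Ednrb is the one with means over 10 in the neurosphere, NICD/p18 and E16 AP-like columns.

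No probe set of the ligands reached the 20-copy signal in any cell. Edn1, known in the mouse as a vascular and craniofacial ligand, had a single probe set with a highest signal of 20.1 on the linear scale, 42.0 times below the 20-copy signal. Its mean was 1.27 ± 0.74 (SD, n = 23) in E11 and 1.13 ± 0.84 (SD, n = 17) in E16 AP-like cells. The NICD/p18 cells had the highest Edn1 mean, 3.03 ± 1.00 (SD, n = 4), which is still far under the level at which signals can be read.

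Edn3, the ligand paired with Ednrb in neural crest, had 4 probe sets. The highest values were 8.07 for 1441924_x_at, without the cell 31i, which was at 9.02, 8.56 for 1441923_s_at, 5.24 for 1421136_at and 4.83 for 1438696_at. For the main probe set, 1441923_s_at, the means were 3.01 ± 1.49 (SD, n = 23) in E11 and 4.00 ± 1.86 (SD, n = 17) in E16 AP-like cells, a difference smaller than the SD of either. Edn2, the ligand outside the member list, was also under the 20-copy signal in all 68 cells. Levels under 20 copies cannot be told from none here, and the arrays hold no cell chosen for making the ligands, so a source outside the cells picked was not measured.

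Ece2, an endothelin-converting enzyme of neural tissue, was over the 20-copy signal in some cells of most classes. In E11 AP-like cells the lowest was at 1.23, the median at 5.95 and the highest at 10.94, and 7 of 23 were over (30.4%, interval 13.2 to 52.9%). In E16 AP-like cells the lowest was at 1.95, the median at 4.35 and the highest at 11.82, and 2 of 17 were over (11.8%, interval 1.46 to 36.4%). The ranges overlapped over most of their length. The means were 6.92 ± 3.03 (SD, n = 23) and 5.17 ± 2.87 (SD, n = 17), and the E16 minus E11 difference of -1.75 was smaller than either SD.

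The remaining Ece2 values fell in the same range. Of the 3 E11 IP-like cells, 1 was over the 20-copy signal, and so was 1 of 3 E11 neuron-like, 1 of 10 E16 IP-like, 1 of 3 E12 and 1 of 3 neurosphere cells. The NICD/p18 cells were at 3.71, 3.94, 4.57 and 5.31, all under it. By label, 9 of 29 E11 cells and 3 of 28 E16 cells were over (31.0% and 10.7%, intervals 15.3 to 50.8% and 2.27 to 28.2%). The intervals overlap. The second probe set of Ece2, 1424561_at, reached the 20-copy signal in no cell and differed the other way between stages, with means of 3.10 in E11 and 4.53 in E16 AP-like cells. The Ece2 locus shares a readthrough transcript with its neighbour Eef1akmt4 in the RefSeq table, and which of these transcripts 1423358_at reads was not determined.

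**Figure D3:**
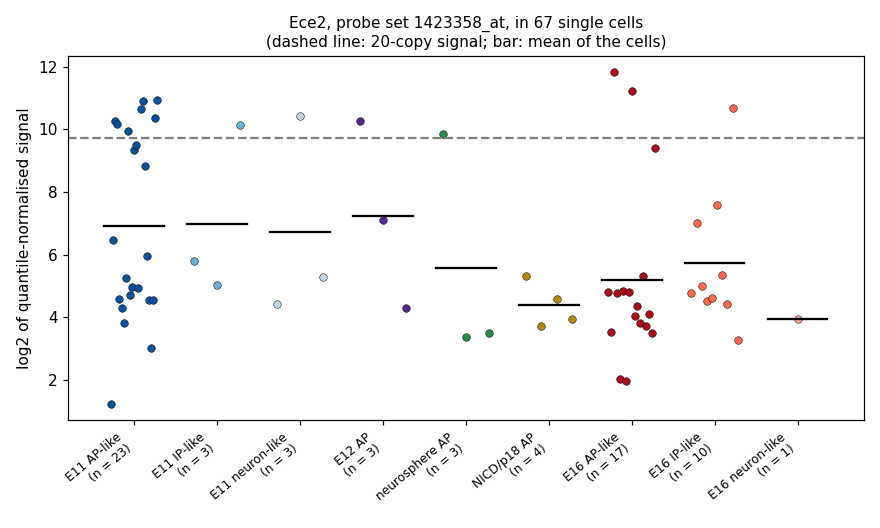
Ece2 level in single cells. The vertical axis is log2 of the quantile-normalized signal of probe set 1423358_at, points are cells, bars are means and the dashed line is the 20-copy signal. Cells over the line are spread over most classes, 7 of 23 in E11 AP-like and 2 of 17 in E16 AP-like cells.

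Ece1, the widely expressed converting enzyme, was over the 20-copy signal in 2 cells, the E11 IP-like cell 41G at 10.26 and the E16 AP-like cell 78O at 10.60. The AP-like means were 3.44 ± 2.78 (SD, n = 23) at E11 and 2.95 ± 3.42 (SD, n = 17) at E16, a difference of -0.49 that is far smaller than the spread between cells. The E12 cells had a mean of 4.90, the neurosphere cells 2.12 and the NICD/p18 cells 1.87, with no cell over. The other probe sets of Ece1 stayed at or under 4.99 in every cell.

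Of the 17 E16 AP-like cells, 2 had Ece2 over the 20-copy signal and 1, 78O, had Ece1 over it, and all 3 also had Ednrb over it, as did 14 of the 17. The 1 E11 AP-like cell with Ednrb over it, 37M, was also over it for Ece2, at 10.18. In E11 AP-like cells 16 of 23 had none of Ednrb, Ece1 and Ece2 over it, and in E16 AP-like cells 3 of 17 had none.

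**Figure D4:**
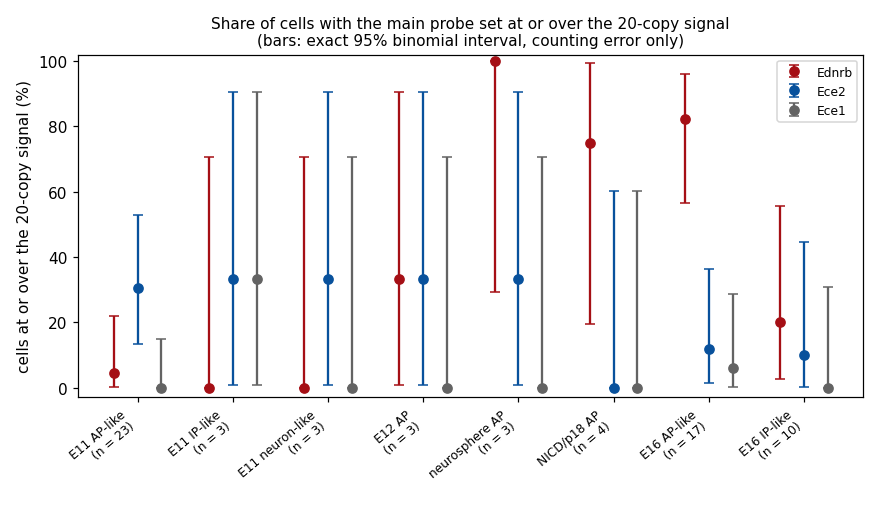
Share of cells in which the main probe set of Ednrb, Ece2 or Ece1 was at or over the 20-copy signal. Points are shares in percent by class of cells and bars are exact 95% binomial intervals, which cover counting error only. Ednrb stands at 4.35% in E11 and 82.4% in E16 AP-like cells, while the Ece2 and Ece1 intervals of these classes overlap.

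The other genes around the receptor were taken from a list of 40, of which 38 had a probe set and 28 reached the 20-copy signal in at least 1 cell. Each was read by its main probe set, whereas the shares given beside the counts are over all probe sets, so these are not like for like. Between E16 and E11 AP-like cells 1 of the 28 passed as higher, beside 0.864% of all probe sets, and 0 as lower, and the median difference was 0.20, against -0.07 over all probe sets tested. The gene that passed was Gnai1, the alpha subunit of a G protein that inhibits adenylyl cyclase, with means of 6.11 ± 3.89 (SD, n = 23) at E11 and 9.93 ± 2.52 (SD, n = 17) at E16. Of the other 9 G protein genes listed, Gnas, Gnai2, Gnai3 and Gna13 were over the 20-copy signal in most AP-like cells of both stages, and the other 5 were not. Gnas, the alpha subunit that stimulates adenylyl cyclase, had means of 13.04 and 13.23, Gnai2 11.85 and 11.71, and Gnai3 11.63 and 10.12. Gnaq, which couples endothelin receptors to phospholipase C, had means of 6.52 ± 3.57 (SD, n = 23) and 9.35 ± 2.75 (SD, n = 17), with 6 of 23 and 10 of 17 cells over the 20-copy signal. Its mean stayed under that signal at both stages.

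Among the processing peptidases 4 of 9 listed genes reached the 20-copy signal anywhere, and none passed in any of the contrasts given here. Mme and Phex, peptidases of the same family as the converting enzymes, and Pcsk5, a proprotein convertase, were under it in all cells. Furin, the convertase that makes the first cut of the endothelin precursors in other cells, was over it in 2 of 68 cells. Among the genes that end receptor signalling, 8 of 9 reached it anywhere. In neurosphere APs 2 of the 28 genes passed as higher, beside 2.84% of all probe sets. They were Gnaq with a mean of 10.26 and the beta-arrestin gene Arrb2 with 10.29 against 8.15 in E11 AP-like cells. In NICD/p18 APs 2 passed as higher, beside 3.00% of all probe sets. They were the G protein gene Gnao1 at 11.17 against 5.26 and the beta-arrestin gene Arrb1 at 11.51 against 3.68. The receptor kinase gene Grk6 passed as lower there, at 7.41 against 9.98, in a contrast where 3.22% of all probe sets passed as lower.

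**Figure D5:**
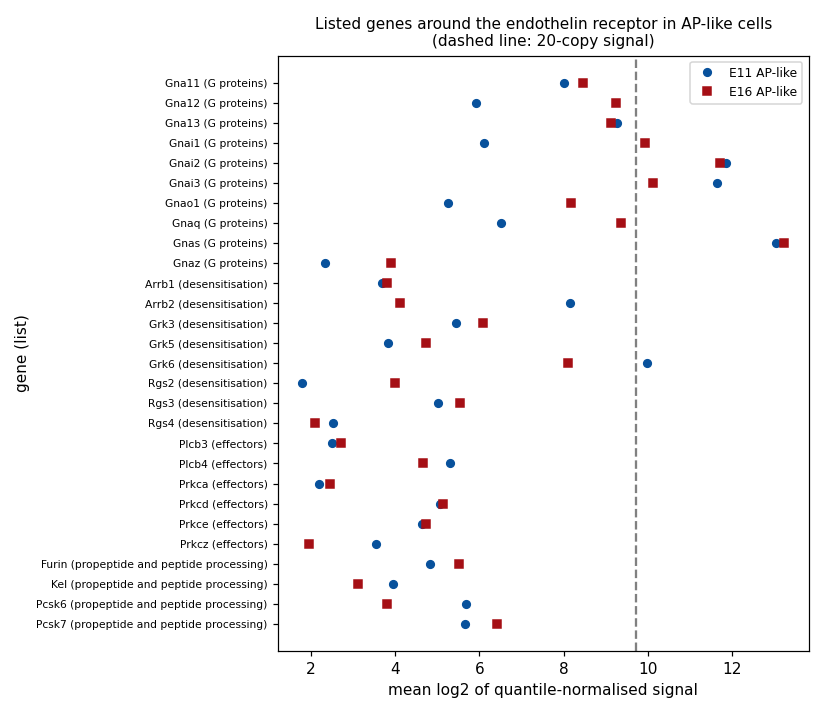
Mean level of the 28 listed genes that reached the 20-copy signal in at least 1 cell. The horizontal axis is the mean log2 of the quantile-normalized signal, circles are E11 and squares E16 AP-like cells, and the dashed line is the 20-copy signal. Gnai1 is the gene that lies to the right of the line at E16 with a difference over 2.

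Since Ednrb is known from astroglia, 14 astroglial genes were listed, of which 11 reached the 20-copy signal in at least 1 cell. Between E16 and E11 AP-like cells 5 of the 11 passed as higher, beside 0.864% of all probe sets, and 0 as lower, with a median difference of 5.46. They were Aldoc, a glycolytic enzyme (4.83 ± 2.84 at E11 and 13.01 ± 0.54 at E16, SD, n = 23 and 17), Clu, Fabp7, a fatty acid binding protein of radial glia, Ndrg2 and Tnc, an extracellular matrix protein. Between E16 IP-like and AP-like cells 3 of the 11 passed as lower, beside 1.19% of all probe sets, namely Aldoc, Clu and Tnc. In the contrasts with E11 AP-like cells, 3 of the 11 passed as higher in E12 APs, where Ednrb did not pass, beside 2.62% of all probe sets. In neurosphere APs 3 passed as higher and in NICD/p18 APs 7, beside 2.84% and 3.00%. These contrasts share the E11 cells. Genes of mature astrocytes were under the 20-copy signal throughout for Aqp4, S100b and Slc1a2, and Gfap was over it in 1 of 68 cells. The list was chosen with earlier results of these cells known, so its count is no independent evidence.

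Among the main probe sets of 10126 other genes, those whose pattern over the 57 E11 and E16 cells was most like that of Ednrb were Slc1a3, a glial glutamate transporter (Pearson 0.80, Spearman 0.64), Ccdc80 (0.74 and 0.60), Ptx3 (0.72 and 0.56), Plce1, a phospholipase C gene (0.71 and 0.57), and Tnc (0.71 and 0.42). The cells of 2 stages and several types share these correlations, and within a stage they differed. For Slc1a3 the Pearson correlation was 0.53 over the 29 E11 cells and 0.69 over the 28 E16 cells, but -0.48 within the 17 E16 AP-like cells. For Tnc it was -0.35 and 0.56, and -0.59 within the E16 AP-like cells. Ptx3 had -0.34, 0.71 and 0.01. Within other classes the values were different again, with 0.59 for Slc1a3 over the 23 E11 AP-like cells, and 0.74 for Slc1a3, 0.70 for Ptx3 and 0.35 for Tnc over the 10 E16 IP-like cells. Ednrb and Slc1a3 were each over the 20-copy signal in 1 of these 23 cells. In the 10 IP-like cells Ednrb was over it in 2 and Slc1a3 in 0. The values within these 2 classes therefore rest mostly on signals that have little meaning as levels.

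The lowest correlations were those of Tubb3, a neuronal tubulin (-0.65), Crabp2, a retinoic acid binding protein (-0.65), Evl (-0.61), Zbed4 (-0.60) and Cxadr (-0.59). Crabp2 was over the 20-copy signal in 22 of 23 E11 and 0 of 17 E16 AP-like cells. For Ece1 the highest correlations were lower, 0.55 for Cx3cl1, 0.49 for Vstm2b, 0.46 for Col4a5 and 0.43 for both Sorcs1 and Sdhaf3, and they rest on a gene that 2 cells held over the 20-copy signal. The Pearson correlation of Ednrb with the array's trimmed mean signal before normalization was -0.15 over the 57 cells.

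Ednrb is also made by neural crest, endothelial and mural cells, so their markers were read beside it. The 8 endothelial genes were under the 20-copy signal in every E11 and E16 cell compared, with a summed signal of 28.6 to 450 in E11 and 63.8 to 266 in E16 AP-like cells. Pecam1 and Cdh5, which define endothelium, were under it in all AP groups, and Cldn5 was over it in 1 of 4 NICD/p18 cells. Of the 5 mural genes, 0 reached it in E11 and 1, Pdgfrb, in E16 AP-like cells, in 1 of 17. The summed signal of the list ran from 60.8 to 778 and from 95.6 to 3283. Of the 5 neural crest and melanoblast genes 1, Dct, was over it in E11 AP-like cells (7 of 23), and 2 of 17 E16 AP-like cells had Dct over it. The summed signals were 63.2 to 4868 and 39.0 to 4286. Sox10 and Mitf were under it in all cells of both AP-like groups. Microglial genes were under it in every cell. In mesenchyme 1 of 5 genes and in oligodendrocyte precursors 2 of 3 reached it in an E16 AP-like cell, and 0 did at E11, whereas 2 of 3 blood genes reached it in an E11 AP-like cell and 0 did at E16. The part of these markers in the Ednrb difference was not tested.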

How the data were processed

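The values deposited by the authors are array intensities from the MAS5 algorithm, named in the submitters' processing notes, on a linear scale. Arrays were Affymetrix mouse whole-genome arrays and cDNA had been made from single cells by PCR amplification. In 58 arrays the mean after trimming 2% at each end ran from 47.5 to 298, and in the other 10 it was 500.0. Columns of other samples numbered 0. The 68 arrays were quantile-normalized together and log2 was taken without an offset. No pair of the 2278 pairs of arrays was identical (0), and the highest correlation was 0.72.

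The main probe set of a gene was the one with the highest mean log2 signal over all cells among those with 1 symbol. Of 45101 probe sets, 34958 had 1 symbol, 932 several and 9211 no entry in the annotation used. E11 and E16 cells were clustered on 70 marker probe sets (correlation distance, complete linkage, 4 clusters), each cluster named for the marker set highest in it against its stage. A difference passed when group means differed by at least 2 on the log2 scale and the higher mean was at or over the 20-copy signal. The number of arrays limits the precision. Named genes were the members, the listed genes and the 5 most alike by Pearson correlation. The members and lists were chosen with earlier results of these data known, and the genes that check plasmids and markers after values were seen. The calls were tested on simulated data. The simulated shifts were larger than the limit of 2, so calls near that limit were not tested. Python 3 with numpy, pandas and scipy was used. Other scalings, an offset, a floor, other probe sets and other clusterings were tried. The classes are rebuilt, so they may differ from those of the study.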

Additional observations from a re-analysis of the deposited data

Results flagged for a closer look

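One value of the 26 combinations of a member probe set with a group of 4 to 10 cells stood far from the rest of its group. Probe set 1434177_at of Ece1 was at 4.99 on the log2 scale in the E16 IP-like cell 82H, while the other 9 cells ran from 0.66 to 2.41. The gap was 0.60 of the group's range. About 1 in 20 groups is expected to hold such a value by chance, and all 10 signals lie far under the 20-copy signal.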

How the results depend on the processing

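Of 79 differences recomputed under other settings, 57 moved by less than the spread between cells, 22 moved by more and 0 changed sign where Ednrb passed. Scaling (signals as deposited, trimmed means or the lys control), keeping cell 31i, average linkage and 3 clusters moved none by that much. The small Ece1 difference between E16 and E11 AP-like cells, -0.49, did change sign. It was 0.14 with an offset of 100, 0.05 with the floor and 0.17 with probe set 1434177_at. With an offset of 100 the Ednrb difference from E11 AP-like cells was 3.801 for E16, 1.93 for E12, 4.83 for neurospheres and 3.79 for NICD/p18. With signals floored at the 20-copy signal it was 1.18, 0.17, 1.95 and 1.19, by label 0.80, and for IP-like minus AP-like cells at E16 -0.97. By construction the floor takes out the range in which most low cells lie. With probe set 1426314_at these 6 differences were 1.94, 1.43, 3.14, 2.64, 1.53 and -0.67, and with 1423594_a_at 1.20, 1.41, 0.44, 1.55, 0.58 and -1.13. Without the 2 cells of the smaller IP-like cluster, a setting chosen after seeing the data, the E16 difference was -5.32. Leaving out 1 cell gave 3.39 to 8.03 for E12, 9.69 to 10.24 for neurospheres and 8.39 to 9.62 for NICD/p18. Of 28 counts of members that passed, 24 were the same. With 2 times the 20-copy signal as the limit the counts for E16, for IP-like cells at E16 and for NICD/p18 went from 1 to 0, and with each array's own control the NICD/p18 count did, where the cause was not tested. Under 20 copies levels cannot be read. No paired analysis was possible because the labels tie no cells of different groups to a shared embryo or culture. The leading number of the cell names is not explained, and the differences within it are given as values.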
